A study of Mus musculus with 20 samples.

Results

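The cholesterol synthesis enzymes described here are 7 genes: Hmgcs1, Idi1, Fdps, Sqle, Lss, Cyp51 and Dhcr7. They were chosen by symbol and not by their values. Of the 7, 6 had an identifier among the 37620 genes listed, and all 6 were among the 14529 genes tested. Hmgcs1, the cytosolic HMG-CoA synthase, was not matched by symbol and was not analysed here.

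The data were RNA-seq libraries of entire dorsal root ganglia (DRG), which hold the cell bodies of sensory neurons with their glia, from E18.5 (late gestation) C57Bl6 mouse embryos. Each of 10 donor embryos gave 1 lumbar library (L4-5 ganglia) and 1 sacral library (L6-S1 ganglia). With 5 male and 5 female donors this made 4 groups of 5 libraries, 1 for each sex at each level. The labels name no agent or allele for any donor. The ganglia were not sorted, so each library mixed neurons, glia, vessels and connective tissue. The study sought transcripts that distinguish sacral from lumbar DRG and the sexes, and here the same comparisons were made for the enzymes of sterol synthesis, with the 2 levels paired by donor.

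Cells make cholesterol from acetyl-CoA through the mevalonate pathway. Its early steps build isoprenoid units and squalene, and its late steps close the sterol ring and trim it to cholesterol. Transcription of most of these enzymes is driven by the SREBP factors, chiefly the product of Srebf2, when membrane sterol is low. Schwann cells need much cholesterol to wrap axons in myelin, and growing neurons need it for their membranes, so both cell types of a late embryonic ganglion use the pathway.

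Idi1 isomerises isopentenyl diphosphate and Fdps joins isoprenoid units into farnesyl diphosphate. Sqle, the squalene epoxidase, makes the first oxygenation step and is a control point of the pathway. Lss closes the ring to give lanosterol. Cyp51 removes a methyl group from lanosterol, and Dhcr7 catalyses the last step of one branch to cholesterol. On mm9, the build of the deposited table, Idi1 lies at chr13:8884852-8891641 (+ strand), Fdps at chr3:88897514-88905881 (- strand) and Sqle at chr15:59146632-59162747 (+ strand). Lss lies at chr10:75994333-76019883 (+ strand), Cyp51 at chr5:4081145-4104746 (- strand) and Dhcr7 at chr7:151009050-151034315 (+ strand). All 6 are protein-coding genes and values are over their merged exons.

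Promoters are shown because 2 of the enzymes printed here, Cyp51 and Dhcr7, moved together across libraries, while Lss did not, and because Mvd was the pathway gene with the largest difference between levels. RefSeq promoters (build GRCm38.p6) were found for 5 of the 7 genes looked for, which were the 6 enzymes and Mvd. Sqle and Fdps had no entry. Each line gives the 250 bases before the annotated start, 5′ to 3′ on the gene's strand, with CCAAT, the box bound by the factor NF-Y, in capitals on either strand (ATTGG is its reverse complement). The windows are chr13:8885356-8885605 for Idi1, chr10:76531355-76531604 for Lss, chr5:4104698-4104947 for Cyp51, chr7:143829964-143830213 for Dhcr7 and chr8:122443423-122443672 for Mvd. For Dhcr7, which has 3 annotated starts, the 1 start whose window held CCAAT is shown.
Idi1: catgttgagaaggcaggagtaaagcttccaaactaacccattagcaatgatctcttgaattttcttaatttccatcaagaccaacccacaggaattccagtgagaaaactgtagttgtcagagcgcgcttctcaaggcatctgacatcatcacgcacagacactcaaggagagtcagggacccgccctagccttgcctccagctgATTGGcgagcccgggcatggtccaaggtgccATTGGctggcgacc
Lss: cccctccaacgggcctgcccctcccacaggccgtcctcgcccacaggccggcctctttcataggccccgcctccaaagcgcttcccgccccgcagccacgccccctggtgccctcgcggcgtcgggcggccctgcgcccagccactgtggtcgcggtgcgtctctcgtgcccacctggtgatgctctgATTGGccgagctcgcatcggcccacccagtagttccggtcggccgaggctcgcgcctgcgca
Cyp51: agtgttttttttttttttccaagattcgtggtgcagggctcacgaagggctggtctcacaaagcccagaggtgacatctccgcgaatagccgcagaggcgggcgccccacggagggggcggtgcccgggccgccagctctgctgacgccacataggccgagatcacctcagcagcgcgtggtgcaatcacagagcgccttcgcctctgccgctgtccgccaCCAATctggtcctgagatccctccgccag
Dhcr7: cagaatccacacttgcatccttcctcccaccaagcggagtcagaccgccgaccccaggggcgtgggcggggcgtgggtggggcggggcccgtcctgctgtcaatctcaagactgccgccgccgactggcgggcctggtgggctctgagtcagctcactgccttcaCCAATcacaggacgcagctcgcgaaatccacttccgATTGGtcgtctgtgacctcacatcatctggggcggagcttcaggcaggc
Mvd: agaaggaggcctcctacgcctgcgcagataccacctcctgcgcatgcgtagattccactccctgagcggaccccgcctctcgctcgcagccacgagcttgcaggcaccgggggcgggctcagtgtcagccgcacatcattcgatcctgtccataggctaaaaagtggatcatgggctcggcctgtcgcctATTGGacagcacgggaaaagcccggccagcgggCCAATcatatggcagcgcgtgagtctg

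The CCAAT box was found 2 times in the Idi1, Dhcr7 and Mvd windows and 1 time in those of Lss and Cyp51, between 85 and 14 bases before the start. It was found in 33.8% of all 32851 promoter windows of the same length. The windows of the other Dhcr7 starts held no CCAAT box. The Dhcr7 window shown was thus picked for its match and cannot be set against that share. A sterol regulatory element written as TCACNCCAC, searched on both strands, was found in none of the 7 windows of these 5 genes and in 1.05% of all windows. These are matches of letters and not measured sites.

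The 6 enzymes were expressed in each of the 20 libraries, and Sqle was the highest. Levels per gene length, as log2 RPKM (reads per kilobase of gene scaled to library size), averaged 4.82 ± 0.49 (SD, n = 20 libraries) for Sqle, 4.42 ± 0.43 for Cyp51, 3.84 ± 0.52 for Dhcr7, 2.92 ± 0.34 for Idi1, 2.51 ± 0.22 for Lss and 2.36 ± 0.30 for Fdps. The order Sqle, Cyp51, Dhcr7, Idi1 held in 20 of 20 libraries. Idi1 exceeded Lss in 18 of 20 libraries and Lss exceeded Fdps in 16 of 20, by 0.15 ± 0.34 (SD) on the log2 scale, so Lss and Fdps did not differ beyond their spread.

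The order of these levels depends on the counted lengths. These were 10787 bases for Lss, 5546 for Sqle, 4286 for Cyp51, 3784 for Dhcr7, 3505 for Idi1 and 1233 for Fdps. The longest coding transcript of Lss has 4667 bases and that of Sqle 2758. The depth behind these levels differed by gene. Recovered from the steps of the values, reads per library ranged from 1530 to 8047 for Sqle, 971 to 4163 for Cyp51, 535 to 2978 for Dhcr7, 946 to 2942 for Lss, 313 to 1173 for Idi1 and 68 to 323 for Fdps. The levels of Idi1 and Fdps are uncertain, since the authors kept uniquely mapped reads only and both genes have near-identical copies. The Fdps transcript aligned to chr10:93241356-93242512 of mm9 at 98.8% identity, and that of Idi1 to chr2:53553399-53555892 at 99.3%, with 2 such places at 90% identity or more for each gene. No such place was found for Sqle, Lss, Cyp51 or Dhcr7. Lss also overlaps a lincRNA on the other strand, and use of strand in counting is not given in the sources used here.

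To ask whether sterol synthesis differs between the spinal levels, each donor's sacral DRG were set against its lumbar DRG. None of the 6 enzymes passed the test. With limma and Benjamini-Hochberg adjustment over all genes, 0 of 6 were called at an adjusted p of at most 0.05, where 6.73% of all tested genes were called. At an unadjusted p under 0.05 there was 1, Idi1, against 24.1% of all genes, and voom on the recovered reads gave the same counts of 0 and 1. The median difference over the 6 was -0.16 (sacral minus lumbar, log2), beside -0.05 over all tested genes. These are ganglion-wide values, in which fewer cells of a type and less RNA per cell cannot be told apart.

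Idi1 had the largest difference of the 6. Its lumbar values ran from 2.66 (donor F7) through a median of 3.07 to 3.55 (M7), and its sacral values from 1.95 (F7) through 2.82 to 3.28 (M8). The ranges overlapped widely, and the sacral library was the lower in 7 of 10 donors. Within donors, sacral minus lumbar was -0.74 in M7, -0.71 in F7, -0.49 in F10, -0.46 in F3, -0.21 in M5, -0.20 in F9, -0.15 in M3, 0.03 in both F8 and M8, and 0.13 in M1. The fitted difference was -0.28 ± 0.10 (SE, 95% confidence interval -0.49 to -0.07, adjusted p = 0.101). It reached an adjusted p of 0.0499 without donor F8.

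Cyp51 had the most even direction. Lumbar values lay between 3.80 (F7) and 4.88 (F3), with a median of 4.72, and sacral values between 3.30 (F7) and 4.74 (M7), with a median of 4.46. Sacral Cyp51 was the lower value in 9 of 10 donors, by 0.13 to 0.50 on the log2 scale, and higher by 0.24 in donor F8. The difference was -0.21 ± 0.13 (SE, interval -0.49 to 0.06, adjusted p = 0.333).

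Sqle, the most abundant of the 6, ranged from 4.13 (M5) through 5.08 to 5.46 (F3) in lumbar and from 3.58 (F7) through 4.84 to 5.32 (M7) in sacral DRG. Sacral Sqle was the lower value in 8 of 10 donors. Its difference of -0.19 ± 0.16 (SE, interval -0.52 to 0.13, adjusted p = 0.462) was within the spread between donors.

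For Dhcr7 the lumbar range was 3.11 (F7) to 4.53 (M8), with a median of 4.03, and the sacral range 2.74 (F7) to 4.37 (M7), with a median of 3.92. The sacral value was lower in 6 of 10 donors, and the difference was -0.13 ± 0.17 (SE, interval -0.49 to 0.22, adjusted p = 0.656). Fdps differed by -0.12 ± 0.11 (SE, interval -0.35 to 0.10, adjusted p = 0.502), with lumbar values of 1.75 to 2.79 and sacral values of 1.97 to 2.75. Lss alone of the 6 had a difference above 0, at 0.03 ± 0.09 (SE, interval -0.16 to 0.22, adjusted p = 0.866), and its sign turned to -0.020 without donor F8. The intervals leave room for a fall of up to 0.52 on the log2 scale in Sqle and of 0.16 in Lss.

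**Figure D1:**
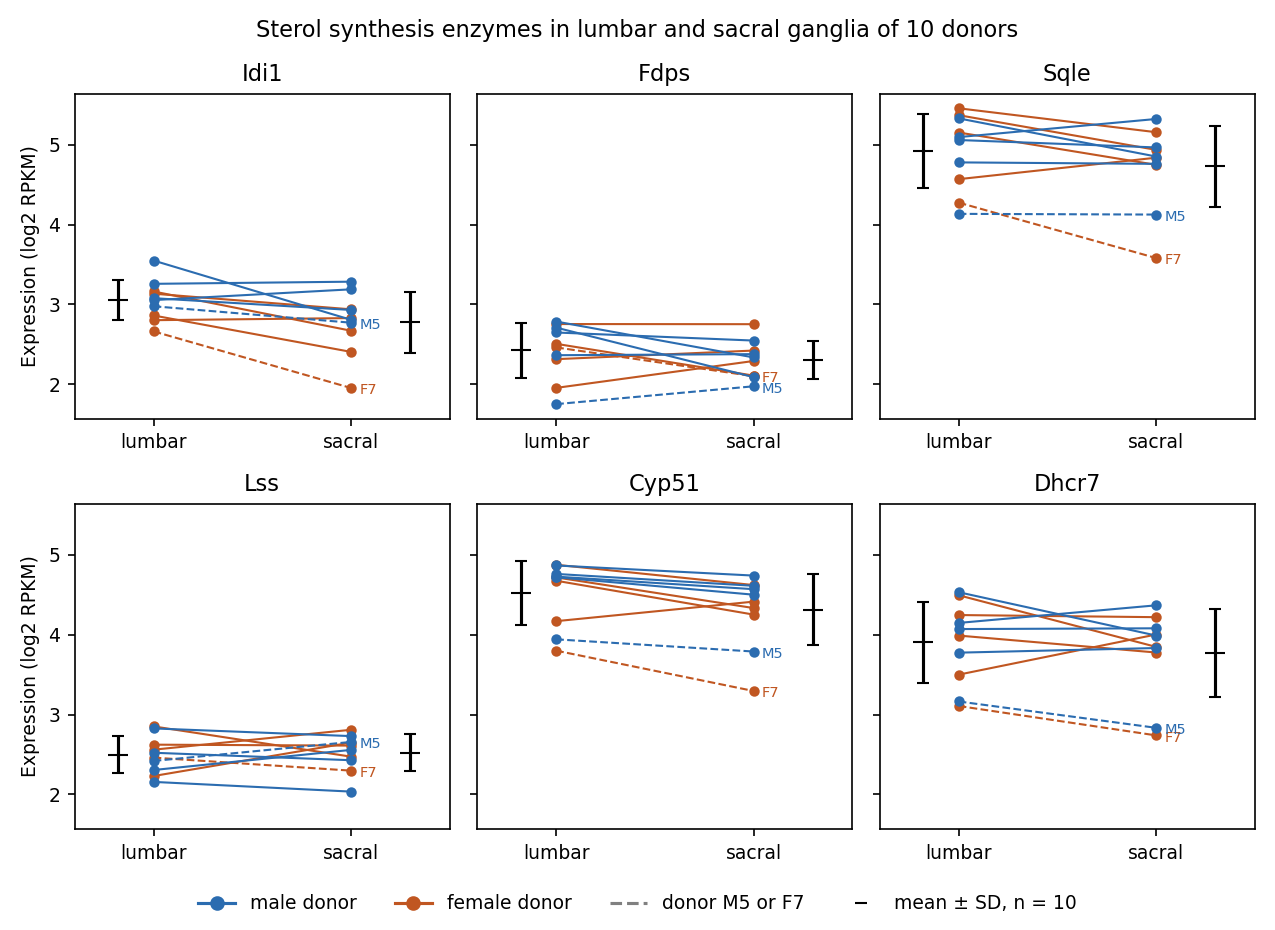
Expression of the 6 enzymes in log2 RPKM, with each donor's lumbar and sacral library joined by a line, male donors in blue, female donors in orange, donors M5 and F7 dashed, and the mean ± SD of 10 libraries in black beside each level. Lumbar and sacral values overlapped for each gene, and the dashed lines lie lowest for Sqle, Cyp51 and Dhcr7 and within the others for Lss.

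The other enzymes of the pathway were taken as a list of 14 genes, all tested. Of these, 2 passed the test, both lower in sacral DRG, as were 4.03% of all tested genes, and 13 of the 14 differences were below 0, with a median of -0.27. Mvd, which makes isopentenyl diphosphate the step before Idi1, had the largest change of the pathway. Its lumbar values ran from 2.54 (M5) through 2.81 to 3.25 (F9) and its sacral values from 1.31 (F7) through 2.11 to 2.65 (M1). The sacral library was the lower in 9 of 10 donors and the ranges overlapped only between 2.54 and 2.65. The difference was -0.70 ± 0.11 (SE, adjusted p = 6.73e-04), which is 1.63-fold lower in sacral DRG. Mvd rests on 101 to 584 reads per library and overlaps Gm20388 on the other strand, whose reads cannot be told apart where counting ignored strand. In the contrast within males of the same fit to all 20 libraries, the Mvd difference was -0.47 and did not pass (adjusted p = 0.189). In the contrast within females it was -0.94 and passed. A dependence of the level difference on sex was called for 0 of all 14529 tested genes.

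Tm7sf2, a sterol reductase that acts after Cyp51, fell in the sacral library of 10 of 10 donors, as did 1.95% of all tested genes. It went from 3.06 ± 0.24 (SD, n = 10) in lumbar to 2.72 ± 0.26 in sacral DRG, a difference of -0.34 ± 0.09 (SE, adjusted p = 0.0262). It overlaps 1110014N23Rik on the same strand. Without donors M5 and F7 the difference was -0.34 and the call was lost (adjusted p = 0.0866), and leaving out single donors gave adjusted p-values from 0.0198 to 0.0611.

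Fdft1, the squalene synthase that feeds Sqle, differed by -0.21 ± 0.14 (SE, interval -0.50 to 0.08, adjusted p = 0.367) and was lower in 7 of 10 donors. Fdft1 did not pass, and Lbr, a nuclear envelope protein that shares the sterol reductase step with Tm7sf2, was the 1 enzyme of the 14 with a value above 0, at 0.05 (adjusted p = 0.867).

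Over the 20 tested enzymes together, 18 had a difference below 0, beside 58.0% of all tested genes, and the median was -0.25. Most of these differences were smaller than their error allows to call, and 2 of the 20 passed, beside the 6.73% of all genes. By donor, F7 was lower in sacral DRG for 20 of the 20 enzymes, F10 for 19, F3 and F9 for 17, M8 for 16, M1, M3 and M5 for 13 and M7 for 12. Donor F8 went the other way, with 5 of the 20 lower and a median of 0.16 above its lumbar library, against medians of -0.62 in F7 and -0.48 in F10. The share of all tested genes lower in the sacral library also varied by donor. It was 60.8% in F7, 58.1% in F10, 56.4% in F3, 52.6% in F9 and 53.6% in F8. Among males it was 57.4% in M8, 55.3% in M1, 50.6% in M3, 43.3% in M5 and 48.8% in M7.

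**Figure D2:**
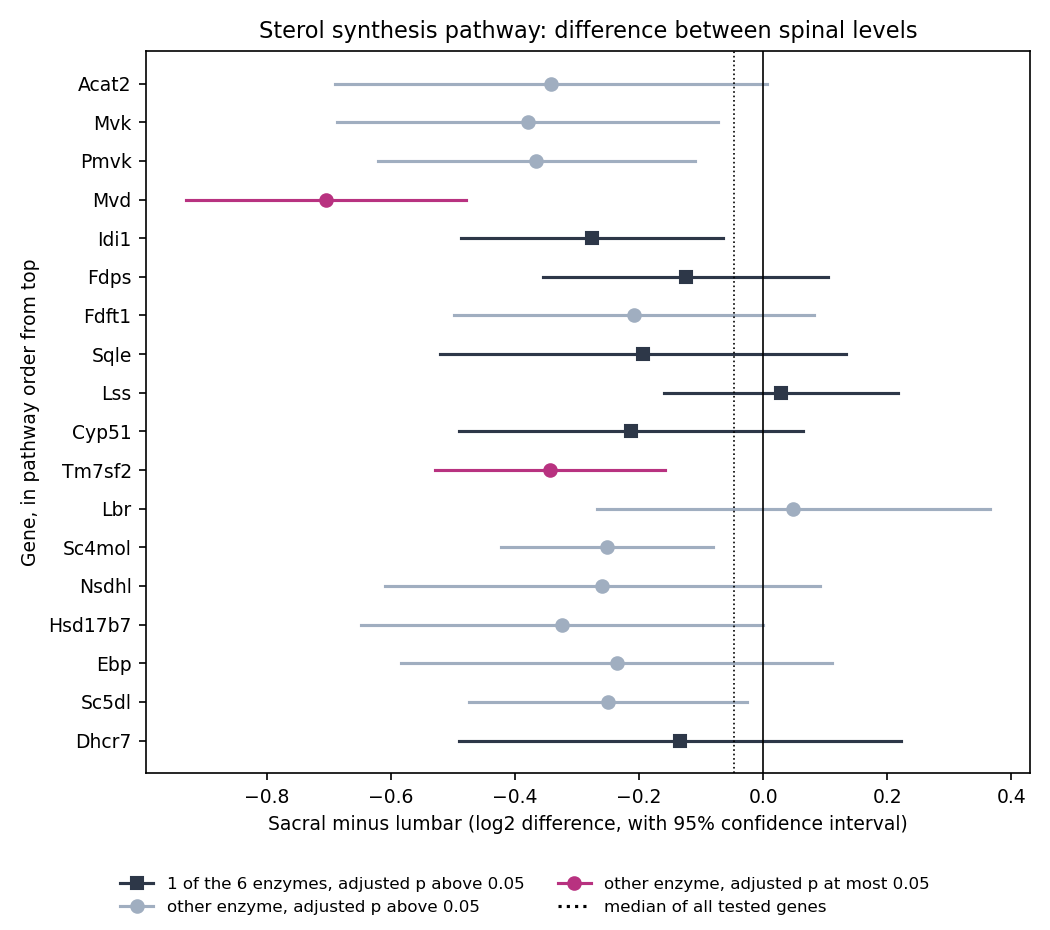
Fitted sacral minus lumbar difference (log2) of 18 of the 20 tested sterol synthesis enzymes in pathway order, with 95% confidence intervals, squares for the 6 enzymes named first and the median of all tested genes dotted. Mvd at -0.70 and Tm7sf2 at -0.34 passed the test, and 16 of the 18 points lie below 0.

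**Figure D3:**
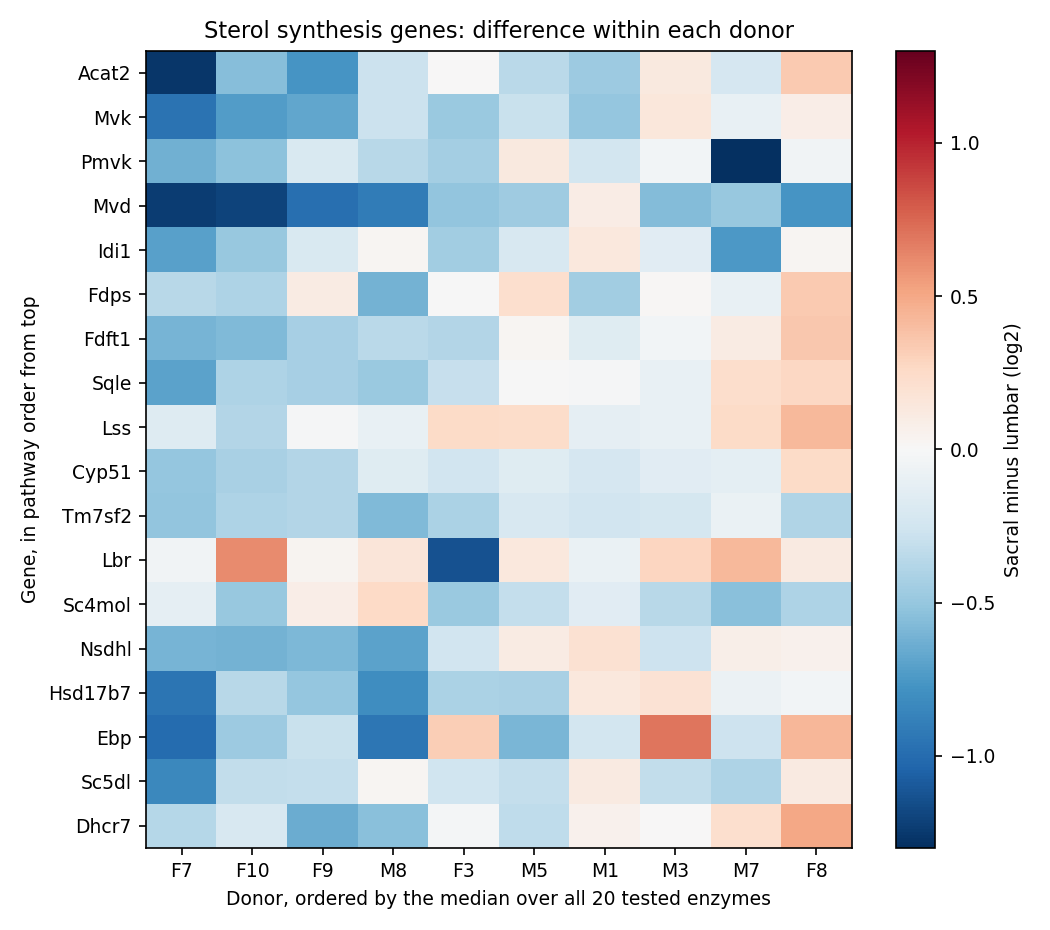
Sacral minus lumbar difference (log2) of 18 of the 20 enzymes in each of 10 donors, blue where the sacral library was lower and red where it was higher, with donors ordered by their median over all 20. Donor F7 is blue in all 18 rows, Mvd and Tm7sf2 are blue in at least 9 donors each, and F8 is red in 13 rows.

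Sterol uptake and transport was represented by 9 tested genes of 10 listed, and 1 passed. Lrp1, a large receptor that takes up apolipoprotein E particles among many ligands, was higher in sacral DRG by 0.61 ± 0.11 (SE, adjusted p = 0.00319), in 9 of 10 donors; 2.7% of all tested genes were called higher. Its values ran from 1.53 through 1.93 to 2.82 in lumbar and from 2.15 through 2.60 to 3.38 in sacral libraries. Lrp1 overlaps Gm16217 on the other strand, whose reads cannot be told apart where counting ignored strand. In the limma contrasts within males and within females it did not pass (adjusted p = 0.0964 and 0.0624). The list's median was 0.01.

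Of the 7 regulators of sterol synthesis, 0 passed by limma or voom, and 1 had an unadjusted p under 0.05. Of all tested genes, 6.73% passed by limma (4.03% lower in sacral DRG) and 24.1% had an unadjusted p under 0.05. Srebf2, the main sterol-sensing transcription factor, differed by -0.11 ± 0.17 (SE, adjusted p = 0.728), and Insig1, which holds SREBP in the endoplasmic reticulum and is itself an SREBP target, by -0.19 ± 0.08 (SE, unadjusted p = 0.031, adjusted p = 0.164). Of 6 tested genes of sterol efflux and storage, 0 passed by limma or voom, and 2 had an unadjusted p under 0.05. Of these 2, Cyp27a1 averaged -0.52 log2 RPKM and passed the 1 RPKM filter only through sacral females. Its p is thus not independent of the filter. All 7 fatty acid synthesis genes had a difference below 0 (median -0.24), beside 58.0% of all tested genes, and 1 of the 7 passed. This was Scd1, the stearoyl-CoA desaturase, which fell from 5.56 ± 0.26 (SD, n = 10) to 5.04 ± 0.39, in 9 of 10 donors. The fall was 0.52 on the log2 scale (SE 0.09, adjusted p = 0.00218). Part of the Scd1 transcript aligned to another place on chromosome 19 at 93.9% identity.

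Myelin genes were read beside the sterol genes because myelin is the main user of cholesterol in nerve. Of 12 listed, 7 were tested, and 5 of the 7 were called lower in sacral DRG, where 4.03% of all tested genes were. All 7 differences were below 0, beside 58.0% of all tested genes. Prx, a membrane scaffold protein of myelinating Schwann cells, differed by -1.17 ± 0.17 (SE, adjusted p = 5.16e-04). Egr2, the transcription factor of myelinating Schwann cells, differed by -1.10 ± 0.27 (SE, adjusted p = 0.0185). Both lay near the 1 RPKM filter and passed it only through lumbar groups. Mean log2 RPKM of Prx was 0.68 and 0.43 in lumbar males and females, and -0.53 and -0.70 in sacral ones. For Egr2 it was 0.07 and -0.24 in lumbar, and -1.09 and -1.28 in sacral DRG. Their calls, and their part in the 5 of 7 and in the median, are thus not independent of the filter. Mal fell by 0.68 (adjusted p = 0.0163) and Mbp by 0.58 (adjusted p = 1.96e-04), both in 10 of 10 donors. The call for Egr2 was lost in 7 of 23 alternatives, among them the fit without donors M5 and F7, where the difference was -1.07 (adjusted p = 0.137). That for Mal was lost in 3 of 24, with no donor block (adjusted p = 0.116) and in the contrasts within males (0.233) and within females (0.127). The median of the 7 was -0.58, against -0.16 for the 6 sterol enzymes. It was -0.34 for 12 neuronal genes and -0.32 for 10 Schwann and satellite glia genes, so a lower sacral median was not particular to myelin genes. The glia list includes Ngfr and Gfra3, which the paper also reports in sensory neurons. The differences between the lists were not tested.

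The sexes were compared within each level, and none of the 6 enzymes passed. In lumbar DRG 0 of 6 were called by limma, beside 0.33% of all genes, and 0 of 6 had an unadjusted p under 0.05. In sacral DRG 0 of 6 were called, beside 1.01% of all genes, and 1, Idi1, had an unadjusted p under 0.05. Voom on the recovered reads gave the same counts. Sacral Idi1 was 2.77 in M5, 2.81 in M7, 2.93 in M3, 3.19 in M1 and 3.28 in M8 among males. Among females it was 1.95 in F7, 2.40 in F3, 2.67 in F10, 2.83 in F8 and 2.94 in F9. The 3 lowest values were female and the groups overlapped between 2.77 and 2.94. The difference, female minus male, was -0.44 ± 0.18 (SE, interval -0.80 to -0.07, adjusted p = 0.247).

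In lumbar DRG the female minus male differences of the 6 ran from -0.26 (Idi1) to 0.10 (Lss), with adjusted p-values of 0.754 to 0.979. The remaining 5 differences in sacral DRG ran from -0.26 (Cyp51) to 0.09 (Lss). The level difference did not pass a test of dependence on sex for any of the 6 (interaction, 0 of 6 at either an adjusted p of at most 0.05 or an unadjusted p under 0.05, by limma and by voom; 0.0% of all genes called and 3.23% under the unadjusted threshold). Intervals were wide, from -0.89 to 0.41 for Sqle and from -0.60 to 0.24 for Idi1. None of the other tested genes of the synthesis, uptake, regulator, efflux and fatty acid lists was called by limma between the sexes at either level.

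Sqle, Cyp51 and Dhcr7 rose and fell together across libraries, a trio named after the values were seen. Of 30 relations tested (15 pairs of genes at each level), 6 passed an adjusted permutation p of 0.05 by Pearson's r, and these were the 3 pairs of the trio at both levels. By rho 4 of these 6 passed. In lumbar DRG Sqle with Cyp51 (rho = 0.697, adjusted permutation p = 0.103) and Cyp51 with Dhcr7 (rho = 0.745, adjusted permutation p = 0.0763) did not. In lumbar DRG the closest pair was Sqle and Dhcr7, with r = 0.966 (n = 10, permutation p = 5.00e-05, adjusted 7.00e-04), while rho was 0.903 (permutation p = 8.70e-04, adjusted 0.00652). In sacral DRG this pair gave r = 0.968 (permutation p = 7.00e-05, adjusted 7.00e-04), while rho was 0.952 (permutation p = 1.70e-04, adjusted 0.00255). Without the 2 libraries farthest from the median of Sqle it was 0.918 in lumbar and 0.925 in sacral DRG, and still passed (adjusted permutation p = 0.0283 for both). For Sqle with Cyp51, r was 0.907 in lumbar and 0.972 in sacral DRG, and 0.732 and 0.750 without the 2 farthest libraries. For Cyp51 with Dhcr7 it was 0.893 and 0.962, and 0.676 and 0.874 without them. These 4 relations no longer passed without those libraries, so they rested in part on them. Lss, Idi1 and Fdps gave no relation that passed by Pearson's r, and by rho 1 passed, Fdps with Sqle in sacral DRG (rho = 0.818, permutation p = 0.00625, adjusted 0.0375).

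The libraries of donors M5 and F7 were the lowest for the trio. Lumbar Dhcr7 was 3.16 in M5 and 3.11 in F7 against 3.50 to 4.53 in the other 8 donors, and sacral Dhcr7 was 2.83 and 2.74 against 3.78 to 4.37. Sacral Cyp51 was 3.79 in M5 and 3.30 in F7 against 4.25 to 4.74 in the others. Sacral Sqle was 4.12 and 3.58 against 4.75 to 5.32. Neither donor's value overlapped with the other 8 in these genes at either level. For Lss, both donors lay within the range of the other 8 at each level: lumbar values were 2.42 in M5 and 2.46 in F7, sacral M5 was the third highest of 10 at 2.66, and sacral F7 the second lowest at 2.30. Without M5 and F7 the level difference was -0.15 for Sqle, -0.18 for Cyp51, -0.08 for Dhcr7 and -0.23 for Idi1, and 0 of 6 passed.

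These 2 donors also had high shares of reads from the 2 mitochondrial rRNA genes, a measure that ranged from 17.8% to 61.1% over the 20 libraries. The share averaged 32.9% ± 13.7 (SD, n = 10) in lumbar and 33.5% ± 10.3 in sacral libraries. In sacral DRG, Cyp51 fell as the share rose (r = -0.764, permutation p = 0.00467, adjusted over 12 relations 0.0140; rho = -0.879, permutation p = 0.00164, adjusted 0.0197), passing by both measures. Dhcr7 (r = -0.773, permutation p = 0.00614, adjusted 0.0147; rho = -0.770, permutation p = 0.0126, adjusted 0.0503), Fdps (r = -0.783, permutation p = 0.00789, adjusted 0.0158; rho = -0.673, permutation p = 0.0397, adjusted 0.0757) and Sqle (r = -0.707, permutation p = 0.0171, adjusted 0.0293; rho = -0.721, permutation p = 0.0236, adjusted 0.0568) passed by r but not by rho. Without donors F3 and M3, the farthest from the median share, r was -0.779 for Cyp51, -0.781 for Dhcr7, -0.667 for Fdps and -0.696 for Sqle, and no longer passed at 8 libraries. Idi1 (r = -0.230, rho = -0.236, permutation p = 0.533 and 0.514, adjusted 0.581 and 0.561) and Lss (r = 0.0798, rho = -0.0303, permutation p = 0.831 and 0.947, adjusted the same) had no such relation.

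In lumbar DRG the 3 libraries of F8, F7 and M5, at 43.2%, 48.8% and 61.1%, stood apart from the other 7, which were under 31%, so no r over all 10 is given. By rank over all 10, Dhcr7 passed (rho = -0.842, permutation p = 0.00417, adjusted over 12 relations 0.0250). Sqle (rho = -0.745, adjusted permutation p = 0.0528) and Cyp51 (rho = -0.661, adjusted permutation p = 0.0757) did not. These ranks include the 3 high libraries. Within the 7, r was -0.669 for Dhcr7 (permutation p = 0.117; rho = -0.571, permutation p = 0.201), -0.522 for Sqle (permutation p = 0.216; rho = -0.250, permutation p = 0.597) and 0.0389 for Cyp51 (permutation p = 0.925; rho = -0.0357, permutation p = 0.963), and 0 of 6 genes passed (adjusted p of 0.646 or more). These 3 r values without the 2 libraries farthest from the median were -0.841, -0.722 and -0.0595. With the share as a covariate the level difference of the 6 enzymes stayed close to the main one, from -0.27 in Idi1 to 0.03 in Lss, and 0 of 6 passed. The part of the share in the trio's variation was not tested further.

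**Figure D4:**
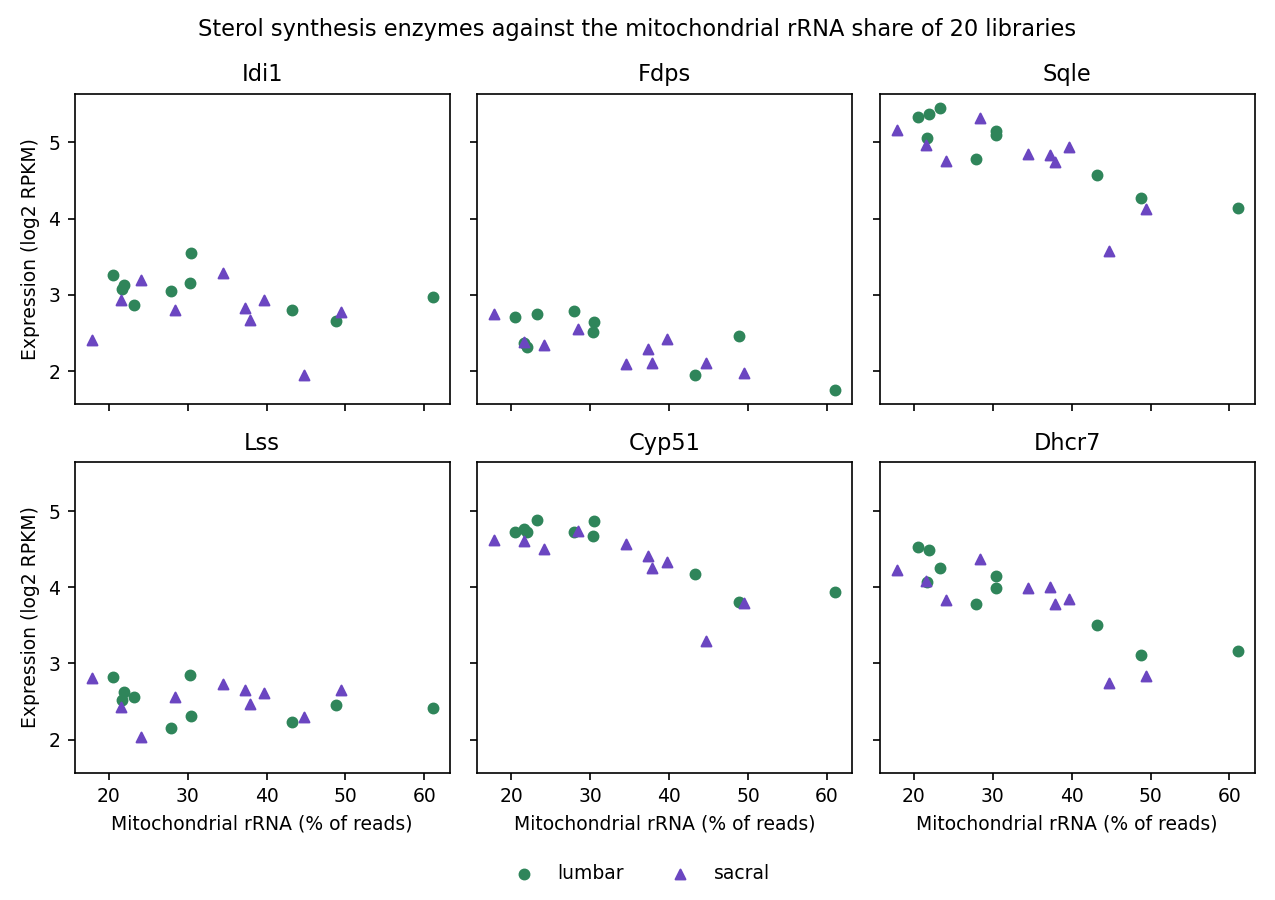
Expression of the 6 enzymes in log2 RPKM against the percentage of a library's reads from the 2 mitochondrial rRNA genes, with lumbar libraries as circles and sacral libraries as triangles. The 4 libraries of donors M5 and F7, at 44.7% to 61.1%, hold the lowest values of Sqle, Cyp51 and Dhcr7, while Lss stays between 2.04 and 2.85 over the whole range.

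The genes most like the 6 enzymes were sought over all tested genes, as the correlation over the 20 libraries with the mean of the 6 after each was scaled to the same spread. As a description, since the libraries share donors and the mitochondrial rRNA gradient, the 5 closest included B4galt5 (r = 0.969), Tubb2b (0.965), Cdk5r1 (0.965) and Lhfpl4 (0.965). In all 648 of 14523 genes exceeded 0.9. Among the other sterol enzymes 6 of 14 did, among them Fdft1 at 0.952. Acly, which supplies acetyl-CoA from citrate, reached 0.963, and Lbr was at -0.727. Among the enzymes, Sqle followed the mean of the other 5 most closely (r = 0.948) and Lss least (0.271).

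Over the 10 within-donor differences the 5 closest genes were Ccdc92 (r = 0.992), Mapk10 (0.990), Erc2 (0.977), Ttll7 (0.975) and Acap3 (0.975). None of the 9 genes named by these 2 measures was called between levels, with adjusted p-values from 0.0976 (Ttll7) to 0.680 (Tubb2b). Of 12 neuronal marker genes, which include Snap25 and Tubb3, the median r with the enzymes over the 20 libraries was 0.901 and the lowest 0.798. It was 0.520 over the 7 tested myelin genes, 0.603 over 10 Schwann and satellite glia genes, -0.408 over 8 fibroblast and meningeal genes and 0.244 over all tested genes. In the glia list Ngfr (0.956) and Gfra3 (0.941), both also reported in sensory neurons by the paper, were near the neuronal genes. Sox10 was at 0.498 and Fabp7 at -0.082.

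Marker levels were set beside these results, with called counts to be read against the 4.03% of all tested genes called lower and the 2.7% called higher. The summed level of the 12 neuronal genes was 1262 to 2925 RPKM in lumbar and 577 to 2049 in sacral libraries. All 12 differences were below 0 (median -0.34), beside 58.0% of all tested genes, and 2 of 12, Snap25 and Nefl, were called lower. The 12 Schwann and satellite glia genes summed to 393 to 615 RPKM in lumbar and 218 to 521 in sacral libraries. Ngfr and Gfra3 of this list are also reported in sensory neurons by the paper, so its values are not those of glia alone. All 10 tested had a difference below 0 (median -0.32), and 2 of 10, S100b and Fabp7, were called lower. The 12 myelin genes summed to 169 to 354 and 123 to 268 RPKM, and Mag, Pmp2, Gjb1 and Ncmap were without reads in at least 1 library. The 8 fibroblast and meningeal genes went the other way, at 214 to 478 RPKM in lumbar and 285 to 625.4 in sacral libraries, and 4 of 8, Col1a1, Col1a2, Pdgfra and Foxc1, were higher. Of the endothelial genes 2 of 5 tested (Cdh5 and Tek), of the macrophage genes 1 of 4 (Mrc1) and of the cartilage genes 1 of 3 (Col2a1) were higher in sacral DRG, and 0 of 4 red cell and 0 of 6 skeletal muscle genes were called by limma or voom, with 2 and 1 at an unadjusted p under 0.05. Marker genes here were named after their values were seen. The part of cell composition in the sterol differences was not tested.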

How the data were processed

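RNA-seq was made from whole DRG of 10 E18.5 C57Bl6 embryos at 2 spinal levels (20 libraries, 4 groups of 5). Per the methods of the study and the submitters' processing notes, the authors amplified total RNA, aligned reads to mm9 with Subread, kept unique reads, counted them on Ensembl genes with featureCounts, applied TMM (edgeR 3.12.1) and voom (limma 3.26.9), and deposited log2 RPKM values. Every library had the same median over listed genes, so values are relative. Groups, sexes and donors came from the labels. That same-donor libraries are paired follows from the labels. Deviations from group means correlated between a donor's 2 libraries at -0.17 to 0.68.

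From the deposited log2 values, limma 3.58.1 (R 4.3.3) was fitted to all 20 libraries with 1 mean per group, donor as a block (duplicateCorrelation, consensus 0.342) and a variance trend, on genes averaging at least 1 RPKM in at least 1 group. P-values were two-sided and adjusted over 14529 genes (Benjamini-Hochberg, threshold 0.05). Whole reads were recovered from the value steps with GENCODE M1 exon lengths (98.3% of values within 0.05 of a whole read). Idi1 needed a length of 3505 bases. Library totals were 19606322 to 39679152 reads. Which embryos were littermates is not given in the sources used here. Correlations used 100000 permutations. Copies were sought with minimap2 2.31. The fit was tested on simulated data. It recovered 38% of genes given a level difference of 0.5 on the log2 scale, the smallest simulated, and 92% at 1.

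The genes, the lists and the tests were chosen with earlier results of these data known. Named genes are the 6 enzymes, genes of the sterol, transport, regulator, efflux and fatty acid lists past the threshold, Fdft1, Srebf2, Insig1, the 4 myelin genes with the largest level difference and the 5 genes most alike by each of 2 measures. Some genes that the rule names are not reported here. Alternatives were no donor block or donor as a fixed effect, pseudocounts of 1 and 0.1, no filter or one of 5 RPKM, quantile and upper quartile scaling, sample weights, the mitochondrial rRNA share as a covariate, voom on recovered reads, each donor left out, and the level contrast within each sex. That contrast came from the main fit to all 20 libraries and not from a fit to 1 sex. After the data were seen, a fit without donors M5 and F7, and correlations in 7 lumbar libraries and in within-donor differences, were added.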

Additional observations from a re-analysis of the deposited data

Results flagged for a closer look

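Single libraries or donors were checked for standing apart from their group by Dixon's test in 85 groups of values of the named genes, where chance flags about 1 in 20. It flagged 7. Cyp51 was lowest in donor M5 in lumbar males (3.94 log2 RPKM) and sacral males (3.79), and lowest in F7 in sacral females (3.30). Sqle was lowest in F7 in sacral females (3.58). Fdft1 was lowest in M5 in lumbar males (3.63), and the myelin gene Mal was lowest in F7 in sacral females (2.59). Of the within-donor differences, that of Cyp51 in F8 (0.24, sacral minus lumbar) stood apart as the highest. The libraries of M5 and F7 had mitochondrial rRNA shares of 44.7% to 61.1%. The 7 flags share genes and donors and are not independent.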

How the results depend on the processing

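The 0 of 6 enzymes called between levels held in 23 of 24 alternatives and rose to 1 (Idi1, -0.32, adjusted p = 0.0499) without donor F8, with 0 to 1 over all donors left out in turn. Idi1 then ran from -0.32 to -0.21 and Lss from -0.020 to 0.079. Lss was also -0.034 with sample weights, and in the contrast within males Srebf2 was 0.059. Mvd, Scd1 and Lrp1 lost their calls only in contrasts within 1 sex. Tm7sf2 lost its call in 11 of 24 alternatives, among them no replicate block (adjusted p = 0.168). The count of genes called between levels, 978 in the main fit, was 154 with no replicate block, 509 with no filter, 2998 with sample weights, 261 without donors M5 and F7, 67 in males, 128 in females and 400 to 1594 with a donor left out. With no replicate block 0 of the 6 enzymes were called. Between the sexes in lumbar DRG it was 48, then 90 with quantile and 94 with upper quartile scaling, 197 with weights, 228 with the rRNA covariate and 14 to 81 with a donor left out. In sacral DRG it was 147, then 94 with no filter, 345, 299, 751 and 705 in the same order, 329 without M5 and F7 and 55 to 443 with a donor left out. Several of the enzymes' sex differences, none of them called, changed sign. With a donor left out, the lumbar ranges were -0.23 to 0.057 for Fdps, -0.10 to 0.26 for Sqle, -0.32 to 0.0063 for Cyp51 and -0.26 to 0.12 for Dhcr7. The sacral ranges were -0.034 to 0.14 for Fdps, -0.32 to 0.11 for Sqle, -0.025 to 0.15 for Lss and -0.35 to 0.14 for Dhcr7, and sacral Dhcr7 was 0.0026 with quantile scaling and 0.037 with the covariate. The interaction of Lss ran from -0.11 to 0.088 and that of Dhcr7 from -0.20 to 0.091 with a donor left out. Under quantile and upper quartile scaling it was 0.039 and 0.060 for Lss and 0.058 and 0.040 for Dhcr7, and it was 0.063 for Dhcr7 with the covariate and 0.084 for Lss without M5 and F7. Without the 2 farthest libraries, r with the rRNA share was -0.586 for Fdps, -0.797 for Sqle, -0.798 for Cyp51 and -0.842 for Dhcr7 in lumbar and -0.667, -0.696, -0.779 and -0.781 in sacral DRG, none passing. In lumbar DRG the 2 left out were M5 and F7, so F8 at 43.2% stayed in and stood apart. Within the 7 lumbar libraries under 31%, r was 0.247 for Fdps, -0.522 for Sqle, 0.0389 for Cyp51 and -0.669 for Dhcr7. Among the enzymes, r without the 2 farthest libraries was 0.732 and 0.750 for Sqle with Cyp51 and 0.676 and 0.874 for Cyp51 with Dhcr7. Pairs that turned sign were Fdps with Lss (-0.286 and -0.0085), Idi1 with Sqle (-0.165) and with Dhcr7 (-0.106), and Lss with Cyp51 (-0.0015) and with Dhcr7 (-0.0287). The causes of these shifts were not tested. Amplified libraries without molecular identifiers limit what 68 reads of Fdps can show.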

Other observations

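Within donors, the change in the mitochondrial rRNA share from the lumbar to the sacral library ran from -11.6 percentage points in M5 to 17.7 in F9. Against it, the within-donor difference of Dhcr7 gave r = -0.601 (permutation p = 0.0689, adjusted over 6 relations 0.279; rho = -0.455, permutation p = 0.191, adjusted 0.327), and r = -0.0233 without the 2 donors farthest from the median. Of the 6 enzymes, 0 passed in these 10 within-donor permutation tests.

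Among genes of sterol handling that did not pass, Mylip, which marks lipoprotein receptors for degradation, was higher in the sacral library of 10 of 10 donors (0.46 ± 0.15, SE, limma adjusted p = 0.0693). Abca1, the cholesterol exporter, was at 0.31 ± 0.10 (SE, limma adjusted p = 0.0690), higher in 9 of 10 donors. Both were named after their values were seen.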
